A study of Mus musculus with 6 samples.

Results

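The 70 genes described here had similar levels in DGCR8-null mouse embryonic stem cells (KO) and in cells with the E518K form of DGCR8, and a different level in wild-type (wt) cells. Of these, 23 were higher than in wt (the raised genes) and 47 were lower (the lowered genes). They were selected on measured values from 12098 genes that passed a minimum level, out of 21978 entries in the table. Counts were divided by the library total, scaled to counts per 1000000 (CPM), and 0.1 was added before group means were taken. A gene was kept when its highest group mean was at least 3, its KO and E518K means lay within 1.3-fold, and all 4 KO and E518K libraries were at least 2-fold above the higher, or 2-fold below the lower, wt library. The rule thus used all 3 pairs of groups and all 6 libraries, so the levels below are a description and carry no test. It selected 0.190% of the 12098 genes as raised and 0.388% as lowered.

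Each of the 3 groups had 2 libraries of poly(A)-selected RNA. Per the labels, KO cells were DGCR8 -/- and non-transfected, and both KO libraries carry the name of 1 clone, 261. The wt cells were clones 12 and 16 with the genotype label DGCR8 wt/wt, and carried the transposon vector pSB ET iE-FlagDGCR8-wt. The E518K cells were clones 8 and 15, labelled DGCR8 E518K/E518K, and carried pSB ET iE-FlagDGCR8-E518K. Both had also received pCMV(CAT)-SB100X, a plasmid for the Sleeping Beauty transposase. The strain label was NBA1-19349 for every sample. All cells, KO included, received doxycycline at 300 ng/mL for 48 h, and all were kept feeder-free with LIF, 3 µM CHIR99021 and 1 µM PD0325901. Vector and transfection therefore separate KO from both other groups. In comparisons with KO their part cannot be told apart from that of DGCR8 itself. The E518K and wt groups do not differ in having received a vector and the transposase plasmid. The design text speaks of 2 independent clones per condition, which the shared clone number of the KO libraries does not bear out, so their spread may not be one between clones.

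DGCR8 is the RNA-binding partner of the nuclease DROSHA. Together they form the Microprocessor, which cuts precursor hairpins out of primary microRNA transcripts in the nucleus. Without DGCR8, canonical microRNAs are lost, among them the miR-290 family, which is abundant in mouse embryonic stem cells and known for easing their passage from G1 to S phase. E518K replaces a glutamate in an RNA-binding domain of DGCR8 by lysine. The comparison of the 3 groups asks which genes are at the wild-type level in E518K cells and which are at the level of the null, and the genes below are of the second kind. The labels do not say whether the wt and E518K lines were made from the KO line.

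The libraries held 73642784 to 75121971 counts, so depth was nearly even. Dgcr8 itself, counted over its whole gene span, was at 41.6 and 38.7 CPM in KO, 798.9 and 409.8 in E518K, and 188.7 and 996.5 in wt. The clones of one group thus differed in Dgcr8 by more than the E518K and wt groups did, and the E518K and wt ranges overlapped. All 8 embryonic stem cell markers exceeded 1 CPM in every library (summed level 4819 to 6384 CPM). Of 11 feeder fibroblast markers and 7 blood cell markers, 1 each did so, with summed levels of 4.79 to 8.58 and 3.96 to 6.88 CPM, and no marker was at 0 in every library.

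Few of the genes changed in KO met the full rule. The rule asked for more than a mean near KO, since both E518K libraries also had to be 2-fold from wt. Nearness to wt was read from the E518K mean alone, so the 2 kinds of share below are not on 1 scale. Both KO libraries lay at least 2-fold above both wt libraries for 984 genes, and for 338 of these (34.3%) the E518K mean was within 1.3-fold of wt. All 4 KO and E518K libraries lay at least 2-fold above wt for 100 genes. Of those 100, 23 are the raised genes (2.34% of the 984), 76 had an E518K mean more than 1.3-fold short of KO, and 1 lay beyond KO. On the lower side the share that met the rule was larger and the share near wt in E518K was smaller. KO was at least 2-fold below wt for 591 genes, E518K was within 1.3-fold of wt for 84 (14.2%), and 151 genes were at least 2-fold lower in both. Those 151 comprise the 47 lowered genes (7.95% of the 591), 94 genes short of KO and 10 beyond it. Across all 984 genes the median log2 distance from wt was 1.65 in KO and 0.55 in E518K, and across the 591 it was -1.75 and -0.90.

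**Figure D1:**
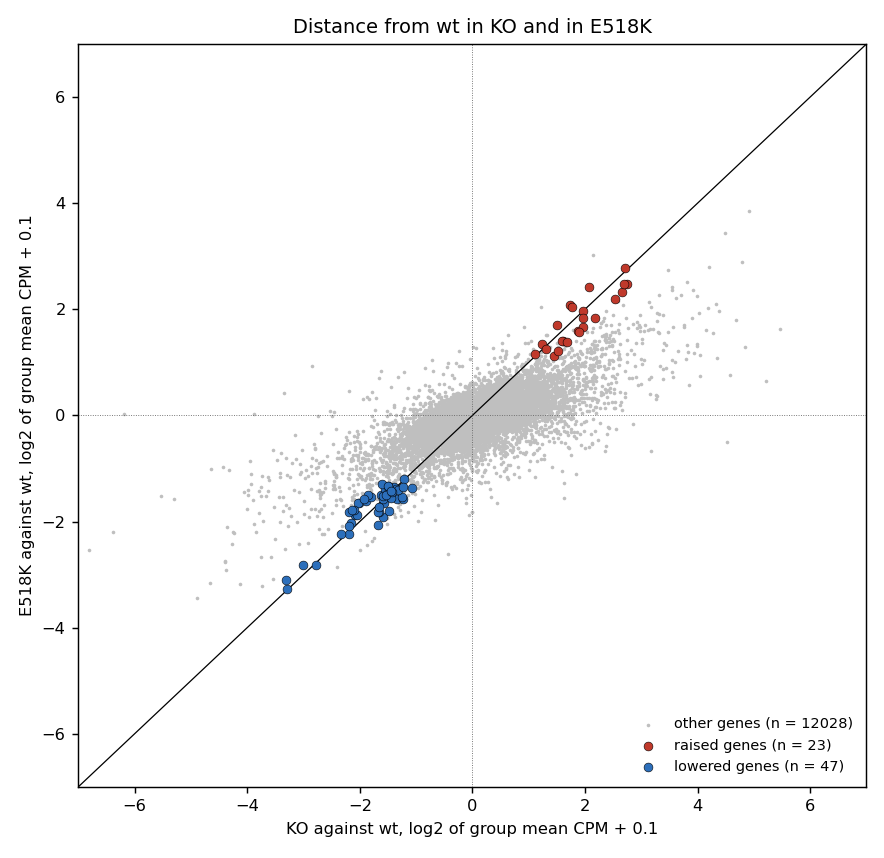
Each point is a gene; the x axis gives KO against wt and the y axis E518K against wt, both as log2 of group means of CPM + 0.1. The 23 raised and 47 lowered genes lie along the line of equal distance by construction, while most of the other 12028 genes far from 0 on the x axis lie nearer to 0 on the y axis.

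By edgeR's quasi-likelihood test over all genes (Benjamini-Hochberg adjusted p under 0.05), 27.4% of 16498 tested genes rose and 29.7% fell in KO against wt. The shares were 11.3% and 12.5% in E518K against wt (37.5% of these calls upward with upper-quartile scaling, 47.5% without), and 22.0% and 19.8% in E518K against KO. These are the backgrounds for the tested relatives named below. The comparisons share libraries, and only values of each comparison are set side by side here.

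Within the 1.3-fold window the 2 sets sat differently. The E518K mean was below the KO mean for 16 of 23 raised genes (14 with TMM scaling) and above it for 29 of 47 lowered genes (36 with TMM scaling). Over all 12098 genes it was below the KO mean for 6782 and above it for 5316. Their median log2 difference between E518K and KO was -0.07 with library totals and 0.02 with TMM scaling. For 14 raised genes both E518K libraries lay under both KO libraries, for 6 they lay above, and for 3 the libraries interleaved. Interleaving was found for 25 of the 47 lowered genes, with both E518K libraries lower in 8 and higher in 14. The median log2 difference between E518K and KO was -0.21 for the raised and 0.04 for the lowered genes, against -0.07 over all 12098 genes. Median distances from wt were 1.88 (KO) and 1.70 (E518K) for the raised genes and -1.62 and -1.58 for the lowered genes.

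Spread between the libraries of a group was larger for these genes than for the typical gene. The median absolute log2 difference between the 2 wt libraries was 0.36 for the raised and 0.26 for the lowered genes, and 0.17 over all genes. Between the E518K libraries it was 0.15 and 0.25 (all genes 0.10), and between the KO libraries 0.07 and 0.12 (all genes 0.05). Low counts are frequent among the lowered genes: the highest group mean was between 3 and 6 for 17 of 47, against 5 of 23 raised genes and 9.44% of all genes. Membership moved with single libraries, by gains and by losses. Without E518K clone 15 the rule selected 26 raised and 49 lowered genes, and 17 and 39 of these were members. Without KO library 1 it selected 22 and 49, with 21 and 38 members among them. Other libraries brought larger gains. Without wt clone 16 the rule selected 72 raised and 106 lowered genes, without wt clone 12 it selected 32 and 102, and without E518K clone 8 it selected 41 and 72.

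Neurofilament genes had the widest gap to wt among the raised genes above 100 CPM. Nefl encodes the light chain and Nefm the medium chain of neurofilaments, the intermediate filaments of neuronal axons. Nefl was at 326.9 and 333.7 CPM in KO, 252.1 and 268.4 in E518K, and 60.3 and 43.6 in wt. Both E518K clones stood far above both wt clones and slightly under both KO libraries, a group mean 6.34-fold above wt in KO and 5.00-fold in E518K. The edgeR estimate of E518K against KO was -0.25 ± 0.15 (log2, SE). Nefm read 390.1 and 405.4 CPM in KO, 294.8 and 329.6 in E518K, and 78.0 and 59.0 in wt, which repeats the order of Nefl. The repeat is not independent. Nefl (chr14:68083863-68089095, plus strand, GRCm38) lies wholly inside the deposited span of Nefm (chr14:68082590-68124846, minus strand), and the counts behave as sums over whole spans without regard to strand. Nefl counts equalled 74.0% to 85.5% of the Nefm counts, according to the library. Subtracting them left 63.1 and 71.7 CPM for Nefm in KO, 42.7 and 61.2 in E518K, and 17.7 and 15.3 in wt, so the remainder was still separated from wt in every library.

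Beside these 2 members, 5 other intermediate filament genes were tested, a family put together after the members were known. Of the 5, 3 rose and 1 fell in KO, and 3 rose and 1 fell in E518K against wt. Nefh, the heavy neurofilament chain, was at 71.2 and 79.4 CPM in KO, 41.0 and 54.3 in E518K, and 24.6 and 18.5 in wt. It rose in KO by 1.72 ± 0.18 and in E518K by 1.16 ± 0.18 (log2, SE; edgeR adjusted p = 3.11e-04 and 0.00654, the second being 0.0676 without E518K clone 15). Its KO and E518K means were 1.58-fold apart, outside the 1.3-fold window. Vim, vimentin, rose by 1.65 ± 0.09 in KO and 0.91 ± 0.09 in E518K (edgeR adjusted p = 3.06e-05 and 0.00161), and E518K against KO was -0.74 ± 0.09 (edgeR adjusted p = 8.75e-04). Nefl and Nefm were also the 2 members in a list of neural lineage genes. Of its 16 other tested genes, 6 rose and 3 fell in KO and 6 rose and 1 fell in E518K (median log2 0.49 and 0.43). Dpysl3, a collapsin response mediator of growing axons, belonged to the raised genes but not to that list: it was at 122.7 and 128.6 CPM in KO, 111.0 and 93.8 in E518K, and 27.6 and 40.7 in wt.

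The purine nucleoside phosphorylase locus contributed 3 entries that are not all separate observations. Pnp and Pnp2 encode purine nucleoside phosphorylases, which split nucleosides into base and sugar phosphate in purine salvage. Pnp was at 298.5 and 318.6 CPM in KO, 251.0 and 281.0 in E518K, and 108.5 and 93.9 in wt, or 3.05-fold above wt in KO and 2.63-fold in E518K. Pnp2 (chr14:50955992-50964749) lies inside the deposited span of Pnp (chr14:50931082-50965237), on the same strand. An entry named RP23-243M12.7, with no match in the annotation used here, had 232.5 and 247.9 CPM in KO, 197.5 and 221.4 in E518K, and 85.0 and 74.3 in wt. The counts of Pnp2 and this entry added up to 98.5% to 99.9% of the Pnp count in each library. The 3 entries are therefore not 3 separate observations, since the Pnp count is nearly the sum of Pnp2 and this entry. How reads were divided between the paralogs is uncertain. Pnp2 itself read 64.2 and 70.1 CPM in KO, 51.3 and 57.2 in E518K, and 23.4 and 18.2 in wt. With Nefl, Nefm and Lgals3, chromosome 14 held 5 of the 21 raised genes that could be placed, where 3.52% of all genes lie, but these 5 are 3 loci.

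Cd3e and Gpr83 were the members of a list of lymphocyte receptors. Cd3e, the epsilon chain of the CD3 complex of the T cell receptor, was at 9.44 and 9.34 CPM in KO, 8.22 and 9.11 in E518K, and 1.97 and 2.72 in wt. Both mutant groups were thus 3.59-fold (E518K) and 3.88-fold (KO) above wt. Gpr83, a G protein-coupled receptor known from regulatory T cells and brain, had the widest gap to wt among the raised genes, with 3.27 and 3.04 CPM in KO, 3.28 and 3.30 in E518K, and 0.333 and 0.462 in wt. Its KO and E518K libraries were within 1.04-fold in their means. The other 2 CD3 chain genes were outside the rule. Cd3d rose by 3.67 ± 0.42 against wt in KO and by 3.02 ± 0.41 in E518K (log2, SE), with adjusted p of 4.02e-04 and 0.00435 from edgeR. Cd3g rose by 2.72 ± 0.31 and 2.36 ± 0.31, with adjusted p of 4.21e-04 and 0.00387. The E518K mean of Cd3d was 1.66-fold under KO, and that of Cd3g 1.35-fold, just outside the 1.3-fold window. Cd247, the zeta chain of the same receptor, was at 78.6 and 83.9 CPM in KO, 58.5 and 65.0 in E518K, and 54.5 and 66.5 in wt, so its E518K and wt clones overlapped. Of the 16 other tested genes of the lymphocyte list, 6 rose and 6 fell in KO and 5 rose and 4 fell in E518K (median log2 -0.14 and 0.12), so its genes went in both directions. Blood cell markers stayed at the low levels given above, and their sum was no higher in KO (4.73 and 4.18 CPM) than in wt (6.14 and 6.88). Within that sum, the marker Cd4 went the other way. It was at 2.06 and 1.81 CPM in KO, 1.55 and 1.98 in E518K, and 0.652 and 0.611 in wt.

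Of the raised genes, 3 more encode proteins of innate immunity or the cell surface. Lgals3, galectin-3, a galactoside-binding lectin, was at 42.2 and 42.1 CPM in KO, 42.7 and 44.7 in E518K, and 19.6 and 19.4 in wt. The 2 libraries of each group nearly coincided, with E518K at or above KO and both 2.16-fold to 2.24-fold over wt. Cfp, properdin, which stabilises the alternative complement convertase, read 50 and 49.5 CPM in KO, 41.5 and 38.9 in E518K, and 16.4 and 18.1 in wt. Apol6, an apolipoprotein L gene, was higher in E518K (7.09 and 7.32 CPM) than in KO (5.76 and 5.47), with wt at 1.10 and 2.13. Its span overlaps Mb on the other strand, and Mb stayed under 1 CPM in all 6 libraries.

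Genes of secreted hormones, receptors and channels formed another group among the raised genes. Trh, the precursor of thyrotropin-releasing hormone, was at 259.2 and 279.1 CPM in KO, 357.3 and 256.5 in E518K, and 101.6 and 87.1 in wt. E518K clone 8 lay above and clone 15 just under the KO libraries. Ano1, a calcium-activated chloride channel, was at 4.42 and 4.76 CPM in KO, 3.08 and 4.80 in E518K, and 0.652 and 0.597 in wt, 6.47-fold and 5.58-fold above wt. Cnga4, a subunit of the olfactory cyclic nucleotide-gated channel, had KO and E518K means within 1.01-fold (5.23 and 5.11 CPM against 6.0 and 4.24, with wt at 1.25 and 1.24). Htr1b, the serotonin receptor 1B, was at 3.50 and 3.84 CPM in KO and 3.16 and 2.62 in E518K. Its wt libraries were 0.346 and 1.13, more than 3-fold apart, so its distance from wt depends on which wt clone is used. Gc, the vitamin D-binding protein of plasma, was, with Apol6, the raised gene in which E518K exceeded KO most, at 13.4 and 14.1 CPM in KO, 16.4 and 18.8 in E518K, and 2.42 and 3.99 in wt.

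The remaining raised genes covered signalling, transport and lipid enzymes. Adap1, a GTPase-activating protein for Arf6, was at 133.3 and 127.6 CPM in KO, 102.1 and 106.1 in E518K, and 34.1 and 35.8 in wt. Its libraries agreed closely within each group, with E518K at -0.23 ± 0.06 (log2, SE) against KO and 2.97-fold above wt. Arhgef38, a guanine nucleotide exchange factor for small GTPases, was at 5.23 and 4.46 CPM in KO, 4.01 and 3.92 in E518K, and 0.280 and 0.991 in wt. Fjx1, a Four-jointed kinase, had KO at 12.8 and 13.2 CPM, E518K at 12.4 and 12.6, and wt at 5.01 and 5.40, within 1.04-fold of each other in the mutants. Slc37a1, a sugar phosphate exchanger, was at 39.1 and 36.1 CPM in KO, 39.6 and 41.9 in E518K, and 14.5 and 17.3 in wt. Tmem106a, a membrane protein, and Lipo2, of the lipase family, lay nearest the 2-fold limit, at 2.06 and 2.03. An unmatched entry, RP23-451C8.2, was at 4.84 and 5.03 CPM in KO, 6.24 and 5.67 in E518K, and 1.06 and 1.67 in wt.

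**Figure D2:**
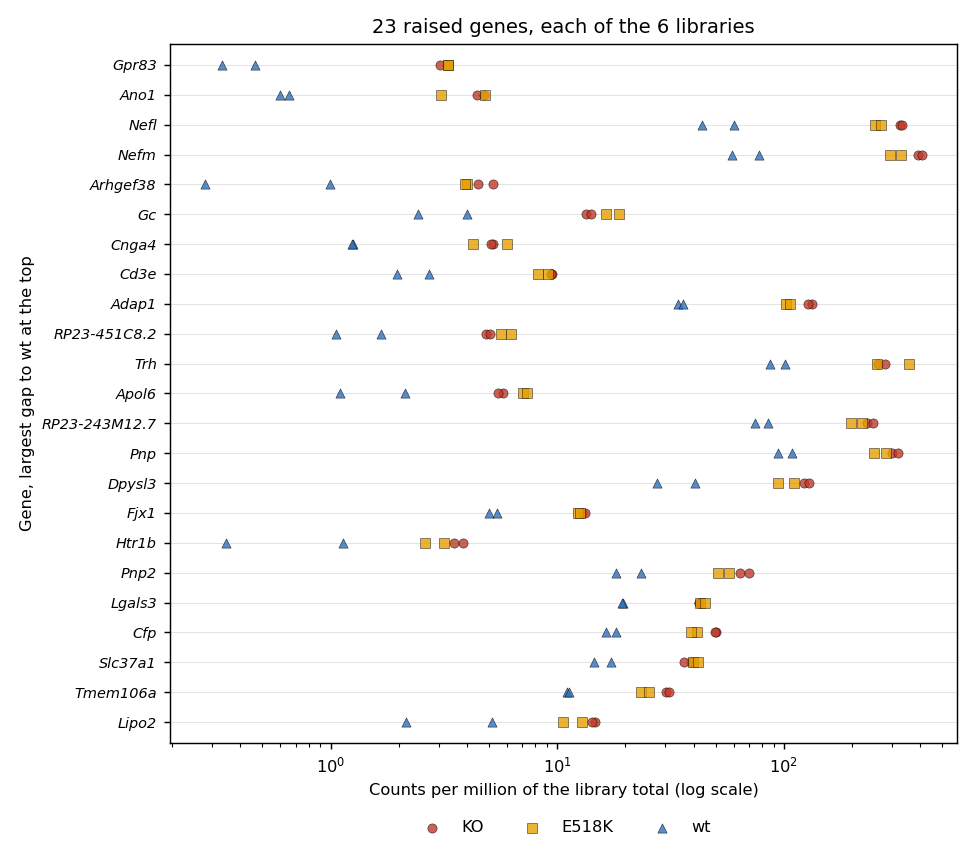
CPM of the 23 raised genes in each library on a log axis, with 1 row per gene and KO as circles, E518K as squares and wt as triangles. The KO and E518K symbols lie near each other while the wt symbols stand apart at the left. Both squares lie left of both circles for 14 genes and right of them for 6, and they interleave for 3. The pair of wt triangles is widest for Arhgef38 (0.280 and 0.991) and Htr1b (0.346 and 1.13).

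Among the lowered genes the largest gap belonged to a major histocompatibility complex (MHC) gene. H2-Ab1, the beta chain of the class II molecule I-A that presents peptides to helper T cells, was at 0.350 and 0.460 CPM in KO, 0.338 and 0.482 in E518K, and 5.35 and 4.35 in wt. KO and E518K libraries interleaved, about 9.80-fold and 9.71-fold under wt, and the edgeR difference between them was 0.11 ± 0.30 (log2, SE). H2-K1, a class I heavy chain, was at 9.51 and 8.72 CPM in KO, 9.54 and 9.78 in E518K, and 26.2 and 25.2 in wt, with all 6 libraries within narrow ranges. Ctsc, cathepsin C, the protease that activates granule serine proteases, read 8.81 and 8.19 CPM in KO, 11.3 and 10.3 in E518K, and 26.5 and 38.6 in wt.

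Beside H2-Ab1 and H2-K1, 20 other antigen presentation genes were tested, a family put together after the members were known. Of these, 10 rose and 4 fell in KO, whereas 0 rose and 8 fell in E518K against wt (median log2 0.35 and -0.64). Several class II genes were low in both groups but outside the rule. H2-Eb1, the class II beta chain of I-E, fell by 3.68 ± 0.29 in KO and by 3.10 ± 0.28 in E518K (edgeR adjusted p = 1.03e-04 and 0.00147), with means 1.38-fold apart. H2-DMa, which helps to load class II molecules with peptide, was at 0.673 and 0.365 CPM in KO, 0.473 and 0.482 in E518K, and 1.69 and 1.64 in wt, under the level minimum. It fell by 1.76 ± 0.35 in KO and by 1.79 ± 0.36 in E518K (log2, SE; edgeR adjusted p = 0.00461 and 0.0141, the second being 0.0901 without E518K clone 8 and 0.114 without clone 15). Ciita, the transactivator of class II genes, was at 0.242 and 0.297 CPM in KO, 0.324 and 0.334 in E518K, and 1.60 and 0.679 in wt, and H2-Aa, the alpha chain of I-A, was at 0 to 0.0803 CPM in the 4 KO and E518K libraries and 0.546 and 0.353 in wt. The 2 class I pathway genes named next differed from this. Tap1, which carries peptides into the endoplasmic reticulum, was at 7.29 and 7.04 CPM in KO, 1.15 and 0.589 in E518K, and 1.40 and 3.08 in wt. It rose in KO by 1.60 ± 0.40, and E518K against KO was -2.95 ± 0.43 (log2, SE; edgeR adjusted p = 0.0113 and 0.00185). H2-M3, a nonclassical class I gene, rose in KO by 2.47 ± 0.29, with E518K at -2.73 ± 0.30 against KO (log2, SE; edgeR adjusted p = 4.59e-04 and 6.47e-04). H2-K1 and H2-Ab1 thus lay low in both groups, while Tap1 and H2-M3 were high in KO and fell in E518K relative to it.

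Transport genes among the lowered members were Wnk2, a kinase that regulates chloride cotransport, Lrrc8b, a subunit of volume-regulated anion channels, and Tmc7, a transmembrane channel-like gene. Tmc7 was at 6.49 and 6.05 CPM in KO, 7.68 and 6.58 in E518K, and 19.7 and 16.3 in wt.

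Ddit4 and P4ha2 were the members in a list of hypoxia-responsive genes. Ddit4 (REDD1), an inhibitor of mTORC1 induced by low oxygen and other stress, was at 33.0 and 30.5 CPM in KO, 26.3 and 22.5 in E518K, and 109.6 and 94.7 in wt. E518K lay below KO in both clones, 4.17-fold under wt against 3.21-fold in KO, at the edge of the 1.3-fold window. P4ha2, a catalytic subunit of collagen prolyl 4-hydroxylase, was at 2.41 and 3.05 CPM in KO, 1.96 and 2.37 in E518K, and 8.39 and 8.49 in wt. Of the 20 other tested genes of the list, 5 rose and 11 fell in KO against wt (median log2 -0.42). In E518K against wt, 1 rose and 11 fell (median log2 -0.56), while 9 rose and 7 fell in E518K against KO. Vegfa, the angiogenic factor, fell by 3.04 ± 0.18 in KO and by 2.41 ± 0.17 in E518K, and Egln3, an oxygen-sensing prolyl hydroxylase, by 1.68 ± 0.10 and 1.10 ± 0.09 (log2, SE; edgeR adjusted p = 3.88e-05, 7.73e-04, 3.56e-05 and 0.00127). Their KO and E518K means were 1.44-fold and 1.40-fold apart, and for both E518K lay nearer to wt than KO did.

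The promoters of these 2 members are shown because both belong to a pathway with a known DNA element, the hypoxia response element with the core ACGTG or GCGTG. Each run is 300 bases, 250 before and 50 after a RefSeq transcription start, 5′ to 3′ on the gene's strand (GRCm38.p6). Capitals mark ACGTG or GCGTG on either strand.
Ddit4, chr10:59951721-59952020, minus strand: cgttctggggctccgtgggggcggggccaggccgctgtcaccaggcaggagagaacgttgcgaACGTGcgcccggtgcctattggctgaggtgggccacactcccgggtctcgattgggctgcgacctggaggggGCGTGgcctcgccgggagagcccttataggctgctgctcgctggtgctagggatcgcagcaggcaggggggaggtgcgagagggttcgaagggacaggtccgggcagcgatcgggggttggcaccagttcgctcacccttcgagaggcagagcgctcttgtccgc
P4ha2, chr11:54100674-54100973, plus strand: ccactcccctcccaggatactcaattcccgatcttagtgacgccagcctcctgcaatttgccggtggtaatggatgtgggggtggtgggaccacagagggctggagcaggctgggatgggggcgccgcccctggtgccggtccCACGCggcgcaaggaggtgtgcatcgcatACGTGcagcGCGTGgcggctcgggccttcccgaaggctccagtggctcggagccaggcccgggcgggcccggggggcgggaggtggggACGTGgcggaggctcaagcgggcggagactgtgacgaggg
Ddit4 held 1 ACGTG and 1 GCGTG and P4ha2 held 2 of each. Either core was present in 43.8% of all 32851 promoter windows of the same length. Among the 9059 genes above the level minimum with a matched window, the share was 65.0%. A match is therefore common, and it is a description of letters only. Neither window held CACGTG, an E-box that contains ACGTG. A comparison of promoter composition over the whole sets is void, because a window matched only 15 of 23 raised and 40 of 47 lowered genes, and 15 of 23 is under 80%.

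Vldlr, a lipoprotein receptor, was the only lowered gene in a list of ATF4 and amino acid genes. Of the 22 other tested genes of that list, 2 rose and 17 fell in KO against wt (median log2 -1.09). In E518K against wt, 2 rose and 11 fell (median log2 -0.29). Vldlr was at 1.54 and 1.05 CPM in KO, 1.36 and 2.06 in E518K, and 5.48 and 7.12 in wt. E518K clone 15 was thus already above both KO libraries. The other 27 of 31 lists, among them the miR-290 targets, p53 targets, glycolysis and pluripotency genes, contained none of the 70 genes. The rule selected 0.190% of 12098 genes as raised and 0.388% as lowered, so absence from lists this short is no result about their genes.

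The next 7 lowered members are described together by their roles in lipid, one-carbon, glycogen and energy metabolism, a grouping made after the members were known and not tested. Fabp3, the heart-type fatty acid-binding protein, was at 57.0 and 53 CPM in KO, 77.6 and 65.3 in E518K, and 257.1 and 192.0 in wt. Both E518K clones lay a little above both KO libraries and about 3.14-fold under wt. Its span shares 81 bases with Zcchc17 on the other strand, which was at 20.2 to 40.5 CPM. Acaa2, the mitochondrial thiolase of fatty acid oxidation, was at 11.9 and 11.7 CPM in KO, 13 and 11.8 in E518K, and 34.1 and 37.2 in wt, 3.01-fold and 2.86-fold lower. Fads6, of the fatty acid desaturase family, read 3.83 and 4.66 CPM in KO, 5.39 and 5.58 in E518K, and 20.5 and 14.2 in wt. Aldh1l1, which oxidises 10-formyltetrahydrofolate in the folate cycle, had KO at 10.6 and 9.19 CPM, E518K at 14.3 and 11, and wt at 38.0 and 34.4.

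Of that group, 3 members bear on glycogen and energy stress. Ppp1r3b, which brings protein phosphatase 1 to glycogen, was at 1.43 and 1.11 CPM in KO, 1.42 and 1.31 in E518K, and 6.51 and 7.09 in wt, 5.04-fold and 4.71-fold lower. Epm2a, the glycogen phosphatase laforin, was at 2.38 and 2.46 CPM in KO, 2.16 and 1.63 in E518K, and 6.26 and 5.46 in wt. Nuak2, a kinase related to AMPK, was at 1.13 and 1.2 CPM in KO, 1.43 and 1.11 in E518K, and 4.01 and 3.58 in wt. Pygl, liver glycogen phosphorylase, which was under the level minimum, fell by 2.58 ± 0.39 in KO and by 3.10 ± 0.41 in E518K (log2, SE; edgeR adjusted p = 0.00130 and 0.00385). Of 9 other tested glycogen genes, members left out, 4 rose and 4 fell in KO and 1 rose and 2 fell in E518K. Of 12 other tested genes of fatty acid oxidation and binding, 5 rose and 2 fell in KO and 3 rose and 4 fell in E518K. Both families were put together after the members were known.

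Regulators of small GTPases, of the actin cytoskeleton and of related signalling were 8 of the 47 lowered genes, a grouping made after the members were known and read against no background. Tiam1, a Rac exchange factor, was at 7.85 and 8.00 CPM in KO, 7.0 and 5.66 in E518K, and 18 and 26.9 in wt, and both E518K clones lay under both KO libraries. Eps8l2, an actin regulator of the EPS8 family, had KO at 3.56 and 3.42 CPM, E518K at 3.80 and 3.00, and wt at 17.8 and 14.8, 4.57-fold and 4.68-fold lower. Srgap3, a GTPase-activating protein of neurons, was at 3.02 and 2.53 CPM in KO, 3.08 and 3.20 in E518K, and 12.1 and 11.7 in wt. Low in both groups were also Arhgap22, a Rac GTPase-activating protein, Cdc42ep2, a CDC42 effector, Sh2d3c, an adaptor with an exchange factor-like domain, and Srcin1, an inhibitor of SRC. These 4 had group means of 1.29 to 4.77 CPM in KO and E518K and 3.95 to 12.6 CPM in wt. Hip1, a clathrin adaptor that binds actin, was at 22.7 and 25.1 CPM in KO, 22.1 and 21.9 in E518K, and 60.5 and 52.2 in wt.

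Transcription and cell cycle regulators were fewer. Fam64a, a mitotic protein, was at 8.67 and 7.51 CPM in KO, 9.95 and 9.64 in E518K, and 30.3 and 26.8 in wt. Zfpm1 (FOG1), the cofactor of GATA factors, was at 2.55 and 2.96 CPM in KO and 3.51 and 3.44 in E518K. Its wt clones gave 16.3 and 8.09, about as far apart as the rule's own 2-fold limit, and both exceeded every KO and E518K library. Cux2, a homeobox factor, had KO at 1.71 and 1.73 CPM, E518K at 1.80 and 1.44, and wt at 4.35 and 4.55. Zfp316, a zinc finger gene, and Gas1, a co-receptor for Hedgehog ligands, had KO and E518K means within 1.01-fold and 1.02-fold and lay 2.69-fold and 2.57-fold under wt in KO.

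Secreted and surface proteins of the lowered set included proteases and matrix enzymes. Hpn, the transmembrane serine protease hepsin, was at 0.741 and 0.703 CPM in KO, 0.838 and 0.762 in E518K, and 3.69 and 3.41 in wt. Mmp15, a membrane-type matrix metalloproteinase, read 1.99 and 2.47 CPM in KO, 2.23 and 2.34 in E518K, and 5.36 and 7.20 in wt. Chst11, a sulfotransferase of chondroitin, had the least certain mutant level: 0.216 and 0.487 CPM in KO and 0.486 and 0.187 in E518K, with wt at 2.68 and 3.31. Each mutant group had 1 library more than 2-fold above the other, and the edgeR difference between E518K and KO was 0.04 ± 0.51 (log2, SE). Susd4, a complement regulator, and Oaf and Mxra7, of less known function, were 2.55-fold, 4.39-fold and 2.63-fold lower in KO and 2.97-fold, 3.43-fold and 2.56-fold lower in E518K. P4ha2, described above, also acts on collagen.

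Nlrp4a, an NLR family gene known from oocytes, had the second largest gap of the lowered genes, with 0.283 and 0.297 CPM in KO, 0.405 and 0.294 in E518K, and 3.09 and 4.41 in wt. Mobp, a myelin protein, was at 1.24 and 1.23 CPM in KO, 1.65 and 1.02 in E518K, and 5.09 and 6.91 in wt. Muscle-type genes were Mypn, a sarcomere protein, and Smtnl1, a smoothelin-like protein, 4.24-fold and 2.82-fold lower in KO and 3.68-fold and 2.50-fold lower in E518K. Trafficking, autophagy and scaffold genes were Copz2, a coatomer subunit, Wipi1, which binds phosphoinositides on forming autophagosomes, Rnf152, a lysosomal ubiquitin ligase, Grasp, a receptor scaffold, and Dap, a death-associated protein. Their folds under wt ran from 2.33 (Wipi1) to 3.20 (Dap) in KO and from 2.29 (Wipi1) to 3.56 (Dap) in E518K. Pde8a, a cyclic AMP phosphodiesterase, was at 19.6 and 19.6 CPM in KO, 17.3 and 14.7 in E518K, and 41.7 and 41.2 in wt. Ttc41, of unknown function, was at 12.4 and 13.7 CPM in KO, 17.8 and 13.9 in E518K, and 54.4 and 42.5 in wt.

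**Figure D3:**
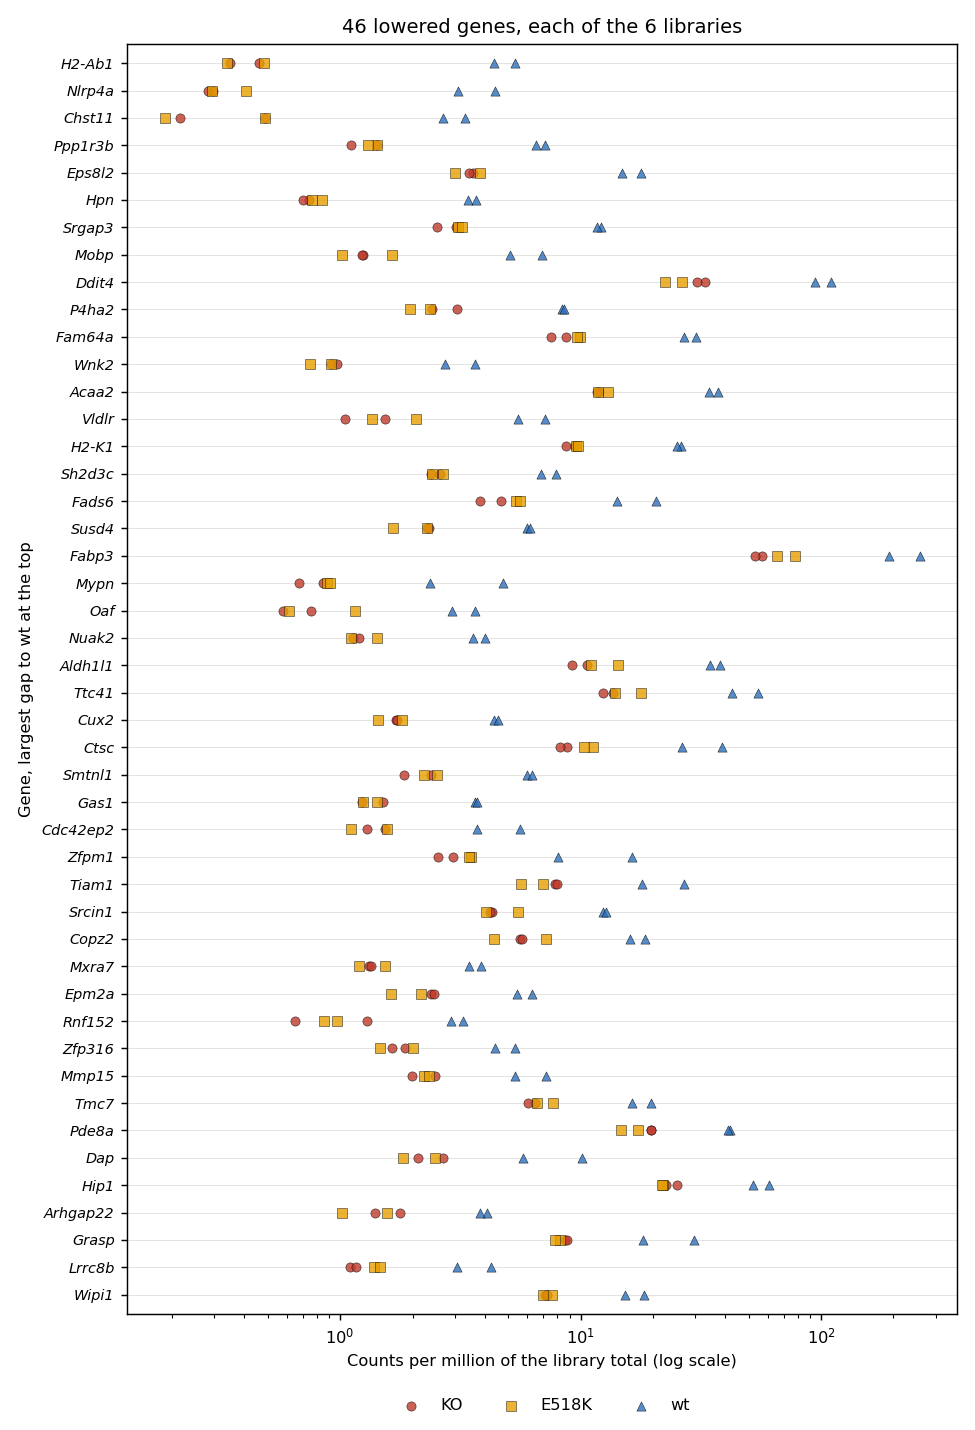
CPM of 46 of the 47 lowered genes in each library on a log axis, with 1 row per gene and KO as circles, E518K as squares and wt as triangles. The wt triangles stand to the right of the KO and E518K symbols in every row, and most rows lie under 10 CPM, where the symbols of a group scatter more, as for Chst11.

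Values around the limits show that the sets have no natural edge. On the 2-fold limit the last raised genes inside were Lipo2, Tmem106a and Slc37a1 (2.03, 2.06 and 2.08) and the first outside Prrt3, Oas1a and Foxp4 (2.00, 1.97 and 1.94). The last lowered genes inside were Wipi1, Lrrc8b and Grasp (2.00, 2.02 and 2.06), and the first outside Myo18a, Nfil3 and Steap2 (2.00, 1.99 and 1.99). On the 1.3-fold limit, Gc, Apol6 and Nefm (1.28, 1.28 and 1.27) were inside, and Nanos3, Chrna9 and Cd3g (1.33, 1.34 and 1.35) outside. Vldlr, Fabp3 and Ddit4 (each 1.3) were inside, and Rasa3, Fam221a and Cebpb (1.31, 1.32 and 1.33) outside. On the level minimum, Gpr83, Htr1b and Ano1 (highest mean of CPM + 0.1 of 3.39, 3.77 and 4.69) were inside and Lix1, Hoxd3 and Cd4 (2.93, 2.11 and 2.04) outside. Among lowered genes Chst11, Rnf152 and Wnk2 (3.09, 3.17 and 3.29) were inside and Olfr1388, Hnf4a and Tmem37 (2.96, 2.95 and 2.89) outside.

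Because the rule used every library, the choice was repeated with 1 library left out and the genes were then read in that library. Of the genes chosen without KO library 1, 22 of 22 raised and 45 of 49 lowered genes were at least 2-fold from both wt clones in it, against 8.65% and 5.44% of all genes. That choice still held KO library 3, which carries the same clone number, whereas each E518K and wt library has its own. Without E518K clone 15 the counts were 22 of 26 and 45 of 49 (all genes 1.45% and 2.71%). Without E518K clone 8 they were 23 of 41 and 46 of 72 (1.2% and 2.09%), and all of these 41 and 72 genes were on the same side of wt in clone 8. Within 1.3-fold of the remaining KO and E518K libraries were 23 of 41 raised and 40 of 72 lowered genes in clone 8, and 18 of 26 and 35 of 49 in clone 15. In KO library 1 these counts were 21 of 22 and 40 of 49, and in KO library 3 they were 24 of 25 and 42 of 52. Read in wt clone 12, 23 of 32 raised and 47 of 102 lowered genes were at 2-fold, and in wt clone 16 23 of 72 and 49 of 106. All 6 exercises together gave 62.4% of 218 raised and 64.7% of 430 lowered choices at 2-fold in the library not used, counting a gene once per exercise. The libraries that the left-out library was compared with had taken part in the choice. These shares are thus partly set by the choice, and are a description and no test.

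**Figure D4:**
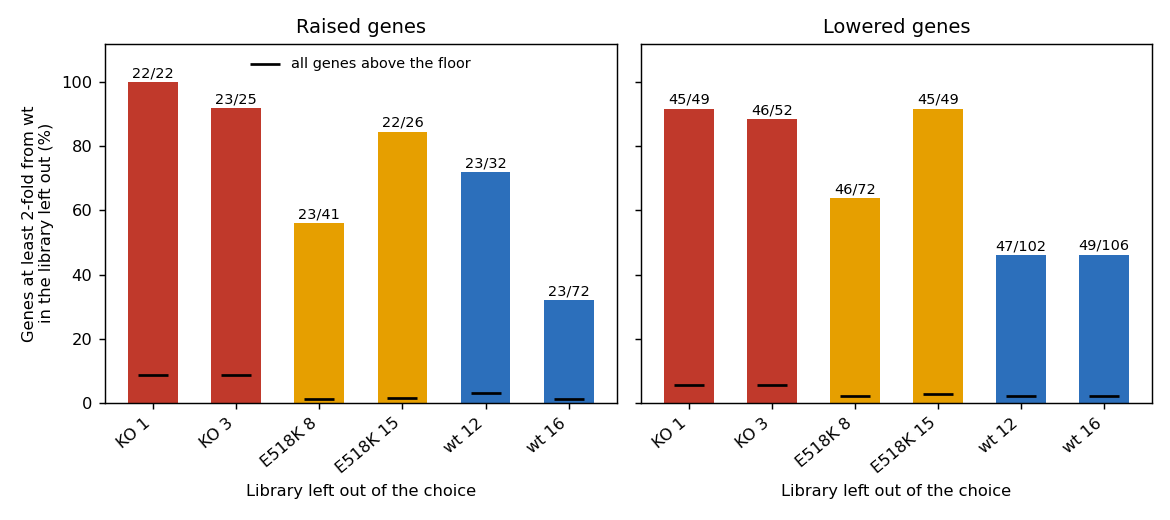
For each library left out of the choice, the bar gives the percent of chosen genes that lay at least 2-fold from wt in that library, with the counts above it and a black mark for the share among all genes above the minimum level. Among raised genes the bars are highest for the KO libraries and lowest for wt clone 16 (23 of 72). Among lowered genes they are lowest for the wt clones (47 of 102 and 49 of 106), and every bar is above its mark. The libraries on the other side of each comparison took part in the choice, so the bars are partly set by it.

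MicroRNA seed matches are a feature that the rule did not use. A microRNA pairs with 3′ UTRs mainly through bases 2 to 8 of its 5′ end, the seed, shown in capitals in the mature sequences (RefSeq, GRCm38.p6). The first stands for the miR-290 family of embryonic stem cells and the second for the miR-17 family; their seeds are offset by 1 base, so that their sites can overlap.
miR-294-3p: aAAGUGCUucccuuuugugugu
miR-17-5p: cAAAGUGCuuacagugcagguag
The matching sites in the 3′ UTR are AGCACTT and GCACTTT, or AGCACTTA and GCACTTTA as 8-base sites. Only the strand of the UTR was searched. Of 21 raised genes with an annotated 3′ UTR, 5 held the miR-290 site (23.8%), as did 7 of 47 lowered genes (14.9%) and 18.9% of 11325 genes above the level minimum. Among the genes that were 2-fold higher in KO and within 1.3-fold of wt in E518K, the share was 130 of 331 (39.3%). For miR-17 the shares were 4 of 21 (raised), 17.0% (lowered), 34.4% (near wt in E518K) and 15.5% (all). The shares of the genes near wt in E518K were thus the higher ones, with no test made. They also exceeded those of all genes for every other family searched, for example miR-19 with 23.3% against 14.1%. With 21 genes, 1 gene is 4.76 percentage points. Median UTR length was 1162 bases for the raised, 1364 for the lowered, 1912 for the genes near wt in E518K and 1383 for all genes. Within UTRs of 500 to 2000 bases the miR-290 shares were 15.4% of 13 raised, 4.76% of the lowered, 32.4% of the genes near wt in E518K and 12.7% of all genes.

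The sites of the raised genes are shown with 12 bases before and 6 or more after, the match in capitals, to let the pairing be read against the seeds above. They lie in the 3′ UTR of Ano1 (chr7:144589004-144589011, minus strand), Htr1b (chr9:81631015-81631021, minus strand), Pnp (chr14:50953351-50953358, plus strand), Fjx1 (chr2:102449513-102449520, minus strand) and Arhgef38 (chr3:133114086-133114093, minus strand), all GRCm38.
Ano1, miR-290 8-base site: gatgagaccctcAGCACTTAccattg
Htr1b, miR-290 7-base site: ctctaagccagtAGCACTTgtagatg
Pnp, miR-17 8-base site: ttctgttttccaGCACTTTAcatatt
Fjx1, miR-17 8-base site: aatcagtttcatGCACTTTActtttt
Arhgef38, miR-17 8-base site: ctatcatgatgaGCACTTTActatac
The Pnp and Arhgef38 matches are each preceded by an A, so the same stretch also reads as a 7-base miR-290 site. Ano1 was the only raised gene with an 8-base miR-290 site, and also held a 7-base one. The Nefm site for miR-290 lies in the stretch of its UTR that is shared with the Nefl span on the other strand. Sites for any of the 11 families searched were present in 14 of 21 raised and 30 of 47 lowered genes (66.7% and 63.8%), and in 65.5% of the 11325 genes. Among the genes near wt in E518K the share was 79.5%. A match is a description of letters and shows no binding.

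**Figure D5:**
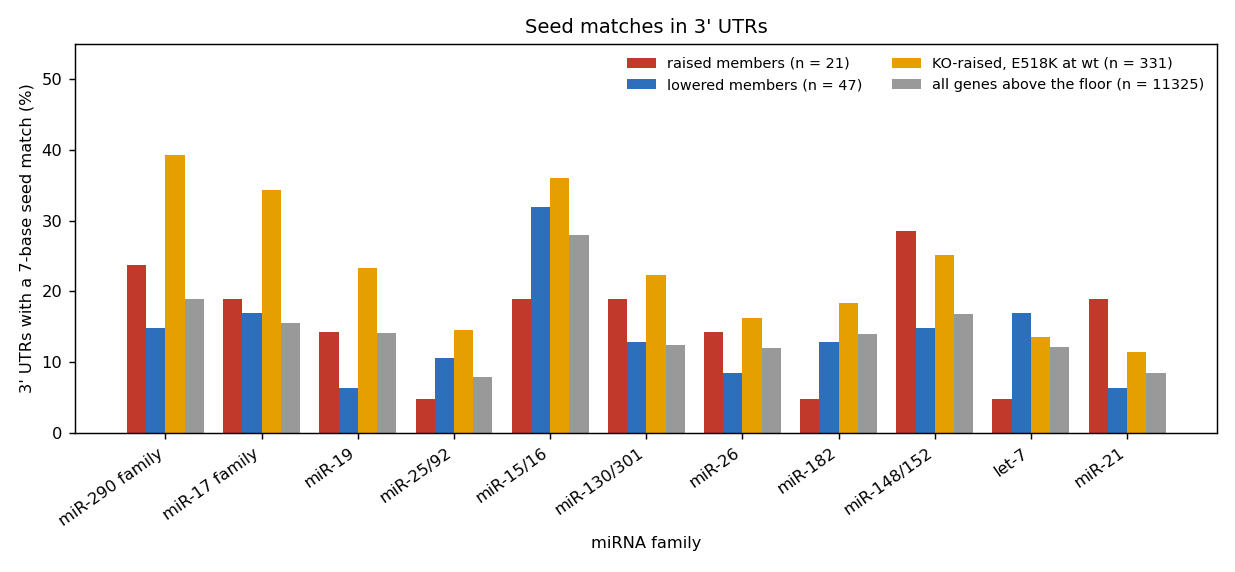
Percent of 3′ UTRs with at least one 7-base seed match, for 11 microRNA families on the x axis and 4 sets of genes as bars: raised (21 genes), lowered (47), genes 2-fold higher in KO and within 1.3-fold of wt in E518K (331), and all genes above the level minimum (11325). The bars of the genes near wt in E518K stand above those of all genes for each of the 11 families. For miR-290 and miR-17 the raised and lowered genes lie near all genes.

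Gene structure differed between the sets in ways that bear on how they were counted. Median span was 12378 bases for the 21 placed raised genes, 32804 for the lowered genes and 25489 for all genes. Spans overlapped another gene of the table for 5 raised genes (23.8%), 1 lowered gene (2.13%) and 23.6% of all genes. Restricting the rule to genes with no overlap left 16 raised and 46 lowered genes. Hairpins of microRNAs lay inside 2 lowered genes (4.26%, all genes 4.19%) and no raised gene, among them Mir152 in Copz2, on its host's strand. A host gene is of interest here since Microprocessor cuts such hairpins out of the host transcript. The 3′ arm, whose seed in capitals it shares with the miR-148 family, is the following.
miR-152-3p, chr11:96850439-96850459, plus strand: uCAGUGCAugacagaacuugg
Copz2 was at 5.62 and 5.72 CPM in KO, 7.16 and 4.36 in E518K, and 18.5 and 16.1 in wt, so both E518K clones and both KO libraries lay under both wt clones, and the E518K clones lay on either side of KO. The level of the microRNA itself was not analysed here.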

How the data were processed

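The authors deposited raw counts per gene and TPM values, each in 1 column per library. Per the submitters' processing notes, STAR, bedtools and GRCm38.p6 were used; their versions and the counting rule are not stated there. The deposited TPM imply, for 98.4% of 15058 genes, a length within 5% of the whole gene span (GENCODE M21), so intronic and overlapping reads enter a gene's count, and strand was not kept. CPM used column totals. edgeR 4.0.16 (R 4.3.3; TMM, minimum count 10, quasi-likelihood, all 6 libraries) tested genes outside the sets; common variation was 11.9%, with 3 residual degrees of freedom, and the script was tested on simulated data. P-values measure only the spread between these libraries. DESeq2 1.42.0 was an alternative. Seed matches used the longest annotated 3′ UTR. Members and gene lists were chosen with earlier results of these data known. Of the members, 33 were to be named by a fixed rule (the 12 widest gaps and 6 highest CPM per set, list members, shared loci and limits); the others are named to account for the sets. For 1 lowered gene the values are not reported here.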

Additional observations from a re-analysis of the deposited data

How the results depend on the processing

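The 23 raised genes became 15 with the deposited TPM values, 15 with a level minimum of 10, 10 with KO and E518K within 1.2-fold, and 90 and 7 with 1.5-fold and 3-fold distance from wt. The 47 lowered genes became 24 with TPM (16 of them among the 47), 74 and 21 with level minima of 1 and 10, 31 and 71 within 1.2-fold and 1.5-fold, and 194 and 8 at 1.5-fold and 3-fold from wt. Leaving out 1 library gave 22 to 72 raised and 49 to 106 lowered genes, which kept 17 to 23 and 37 to 46 of the main sets. TMM and DESeq2 factors kept 20 raised genes each, and 39 and 38 lowered genes. A pseudocount of 1 kept 20 raised and 28 lowered genes (of 21 and 42 then chosen). No member's direction against wt reversed in 630 recomputations, and 105 of these values moved by more than the spread between replicates. In edgeR, 9429 genes were called in KO against wt (6084 to 10958 with 1 library left out) and 6902 in E518K against KO (3285 to 9482). For E518K against wt the 3917 calls became 1999 with only these 2 groups fitted and 644 to 6987 with 1 library left out, the lowest without E518K clone 15 and the highest without wt clone 16. The causes were not tested. Where 1 library was left out, the lone library of its group was assumed to vary like the other groups. Calls printed for relatives of the members kept their side of the threshold in the alternatives run, except Nefh and H2-DMa in E518K against wt, as given beside them. No paired analysis was possible because the groups share no replicate numbers. With 2 libraries per group, with 17 of 47 lowered genes close to the level minimum, a difference between KO and E518K smaller than the 1.3-fold window is often within the spread of the libraries.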
